A study of Homo sapiens with 9 samples.

Results

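The cytosolic ribosomal protein genes code for the protein part of the 40S and 60S ribosomal subunits. They were taken from the deposited gene table by symbol: RPL or RPS followed by a number and at most the letter A or X, with RPLP0, RPLP1, RPLP2 and RPSA. Pseudogenes and paralogs with other symbols were left out. This gave 77 genes of 58387 in the table, 31 of the 40S and 46 of the 60S subunit. All 77 passed the filter on low counts, which 16600 genes passed in all.

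The libraries were RNA-seq libraries of total RNA from MM1S, an established human multiple myeloma line that grows as malignant plasma cells. In KD_Rescued (2 libraries), cells carrying the shRNA against PHF19 also expressed a PHF19 that the shRNA cannot target. In PHF19_KD (3 libraries), cells had received the lentivirus for the shRNA against PHF19 and no PHF19 was added back. In shEV (3 libraries), cells had received the empty lentiviral vector. All groups therefore share lentiviral infection, and KD_Rescued and PHF19_KD share the shRNA. The names of the 3 PHF19_KD libraries share a stem, and whether they stand for 1 transduced line or several is not stated in the labels. A further library was kept out of every comparison because its labels disagree on its group.

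The PHF19 protein is an accessory factor of Polycomb repressive complex 2, which methylates histone H3 at lysine 27. A ribosome carries each of its core proteins in a single copy, the acidic stalk proteins excepted, so cells make these proteins in near equal amounts. Their mRNAs are among the most abundant of a growing cell, and antibody-secreting cells such as plasma cells depend on a high capacity for protein synthesis. In vertebrates these mRNAs begin with a 5′ terminal oligopyrimidine tract (TOP), a run of C and U that starts with C at the cap and through which the kinase mTOR and the protein LARP1 control their translation and stability.

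The tract is shown for 12 genes that carry it, some with and some without a change in these libraries. It stood at the annotated start in 42 of the 62 members with promoter sequence. Each line holds 25 bases before and 20 bases from the annotated start of transcription (RefSeq, GRCh38.p14), 5′ to 3′ on the strand of the gene. The capitals mark the run of pyrimidines that holds the start. RPL13A, RPL31 and RPL7A had 3 of the 4 highest log2 fold changes of PHF19_KD over shEV, RPS27, RPS19 and RPLP0 also rose, RPSA, RPS14 and RPS24 were not called, and RPL41 was the only member called lower. EIF4A2 and NPM1 code for other proteins and were called higher and lower.
RPL13A: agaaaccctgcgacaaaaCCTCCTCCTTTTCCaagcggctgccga
RPL31: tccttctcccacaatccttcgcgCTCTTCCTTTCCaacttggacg
RPL7A: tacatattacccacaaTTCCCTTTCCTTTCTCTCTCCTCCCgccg
RPS27: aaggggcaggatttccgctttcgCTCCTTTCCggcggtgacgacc
RPS19: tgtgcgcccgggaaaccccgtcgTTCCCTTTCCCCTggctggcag
RPLP0: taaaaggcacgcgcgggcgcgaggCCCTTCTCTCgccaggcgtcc
RPSA: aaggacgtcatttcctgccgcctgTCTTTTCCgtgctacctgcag
RPS14: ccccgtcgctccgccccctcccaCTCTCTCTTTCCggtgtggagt
RPS24: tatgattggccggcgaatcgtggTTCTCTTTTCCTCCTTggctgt
RPL41: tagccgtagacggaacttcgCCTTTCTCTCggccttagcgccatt
EIF4A2: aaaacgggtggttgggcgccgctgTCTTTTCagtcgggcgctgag
NPM1: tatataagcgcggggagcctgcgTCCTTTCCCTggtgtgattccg

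These windows lie at chr19:49487583-49487627 (RPL13A, plus strand), chr2:101002264-101002308 (RPL31, plus), chr9:133348193-133348237 (RPL7A, plus), chr1:153990737-153990781 (RPS27, plus), chr19:41860230-41860274 (RPS19, plus) and chr12:120201092-120201136 (RPLP0, minus). The others lie at chr3:39406695-39406739 (RPSA, plus), chr5:150449720-150449764 (RPS14, minus), chr10:78033838-78033882 (RPS24, plus), chr12:56116608-56116652 (RPL41, plus), chr3:186783552-186783596 (EIF4A2, plus) and chr5:171387824-171387868 (NPM1, plus). Each window spans the promoter and the start of the first exon. These positions come from RefSeq and not from the deposited table, which gives none.

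The targeted gene followed the labels. PHF19 had 219.7 and 217 CPM (counts scaled to library size, normalised) in KD_Rescued, 25.9, 27.5 and 27.3 in PHF19_KD, and 123, 123 and 103 in shEV. Column totals were 23644100 and 23751400 estimated counts in KD_Rescued, 10609800 to 12024900 in PHF19_KD and 16974700 to 22739700 in shEV. All 9 plasma cell markers looked at were above 1 CPM, with a summed level of 4821 to 5781 CPM per library. Of the markers of other cell types, HBB and COL1A1 alone passed 1 CPM, and the summed level of each of those lists stayed at or below 7.86 CPM. Both KD_Rescued libraries were run in another lane than the rest, per the library names, so the lane cannot be told apart from the rescue. The library shEV replicate 3 stood apart from its group. Its chi-square per degree of freedom was 8.14 against replicate 1 and 9.15 against replicate 2, while the other pairs of replicates had 1.37 to 2.25. Whether replicates came from separate cultures is not stated in the labels, so each p-value rests on library-to-library spread that may be technical.

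The family as a whole was most abundant in PHF19_KD and least abundant in KD_Rescued. The 77 genes held 7.01% and 7.10% of all counts in KD_Rescued, 11.1%, 11.8% and 11.4% in PHF19_KD, and 8.36%, 8.33% and 7.97% in shEV. The groups did not overlap, and every PHF19_KD library lay above every other. The means were 7.06% ± 0.0683 (SD, n = 2) in KD_Rescued, 11.4% ± 0.359 (SD, n = 3) in PHF19_KD and 8.22% ± 0.221 (SD, n = 3) in shEV, or 8.35% in shEV without replicate 3. Both subunits took part: the 40S genes held 2.90% ± 0.0304, 4.73% ± 0.164 and 3.50% ± 0.0785 of counts, and the 60S genes 4.15% ± 0.0379, 6.71% ± 0.195 and 4.73% ± 0.143, in KD_Rescued, PHF19_KD and shEV in turn. A share of counts in bulk RNA cannot tell fewer cells of a type from less RNA per cell.

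Mitochondrially encoded genes were also most abundant in PHF19_KD, with 5.08% ± 0.132 of counts in KD_Rescued, 9.60% ± 0.518 in PHF19_KD and 3.16% ± 0.279 in shEV. With those genes removed, the ribosomal protein genes held 7.43% ± 0.0824, 12.6% ± 0.328 and 8.49% ± 0.218 in the same order of groups. The order of the groups was therefore the same without them. The 77 nuclear genes for mitochondrial ribosomal proteins were least abundant in PHF19_KD, with 0.418% ± 0.000730 of counts in KD_Rescued, 0.315% ± 0.00753 in PHF19_KD and 0.453% ± 0.00984 in shEV.

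**Figure D1:**
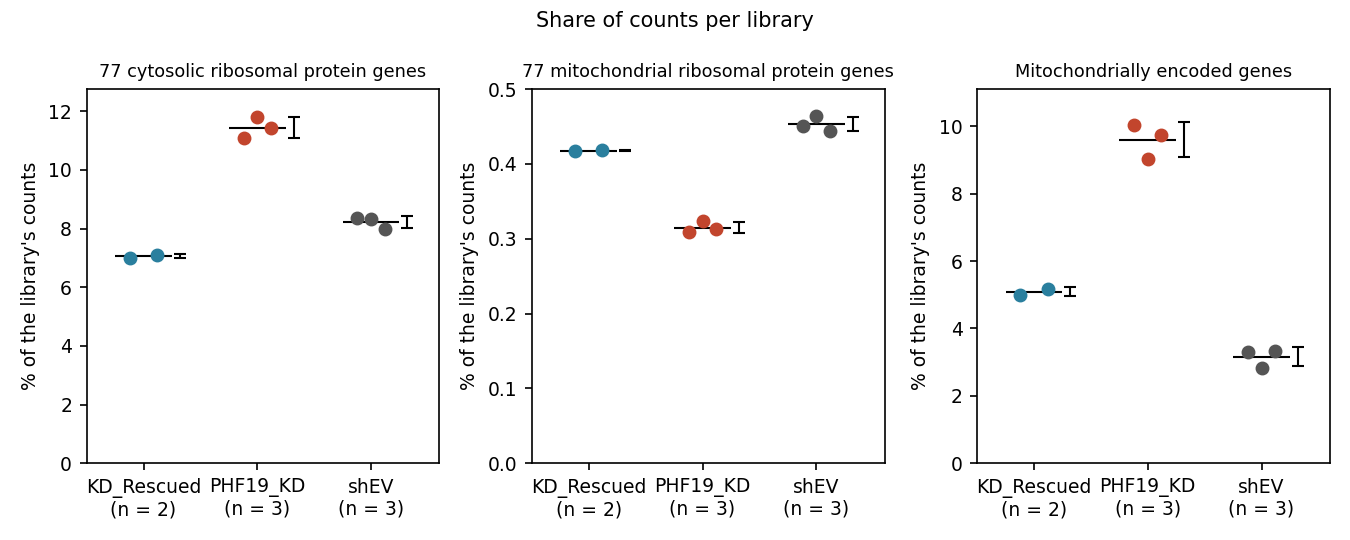
Share of the counts of each library held by the cytosolic ribosomal protein genes, the mitochondrial ribosomal protein genes and the mitochondrially encoded genes. Each point is 1 library, the horizontal line is the group mean and the bracket beside it is 1 SD either way; the cytosolic family held 7.01% to 7.10% in KD_Rescued, 11.1% to 11.8% in PHF19_KD and 7.97% to 8.36% in shEV.

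Knockdown of PHF19 was set against the empty vector to ask which genes change when PHF19 is low. Of the 77 ribosomal protein genes, 67 were called higher in PHF19_KD than in shEV, 1 was called lower and 9 were not called (quasi-likelihood test of edgeR, adjusted p below 0.05 by Benjamini-Hochberg over all 16600 genes). Among all genes tested, 34.9% were called higher and 34.2% lower. The median log2 fold change of the family was 0.42, against 0.03 for all genes tested, and its members ran from -0.22 to 1.00. For 68 members all PHF19_KD libraries were above all shEV libraries, and the same held for 36.6% of all genes tested. For none were they all below, which held for 35.3% of all genes. RPL13A alone reached a log2 fold change of 1.00. Without shEV replicate 3 the counts were 68 higher and 1 lower, and without the mitochondrially encoded genes 64 higher and 1 lower. Upper-quartile scaling moved the median of all genes to 0.19 and that of the members to 0.58, with 74 members higher and none lower. The share of higher among all calls was 60.6% with that scaling and 50.5% with TMM. Under both scalings 71 of 77 members lay above the median of all genes. A change of scaling moves all genes by about the same amount, so this count could hardly differ and is no check of the scaling.

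**Figure D2:**
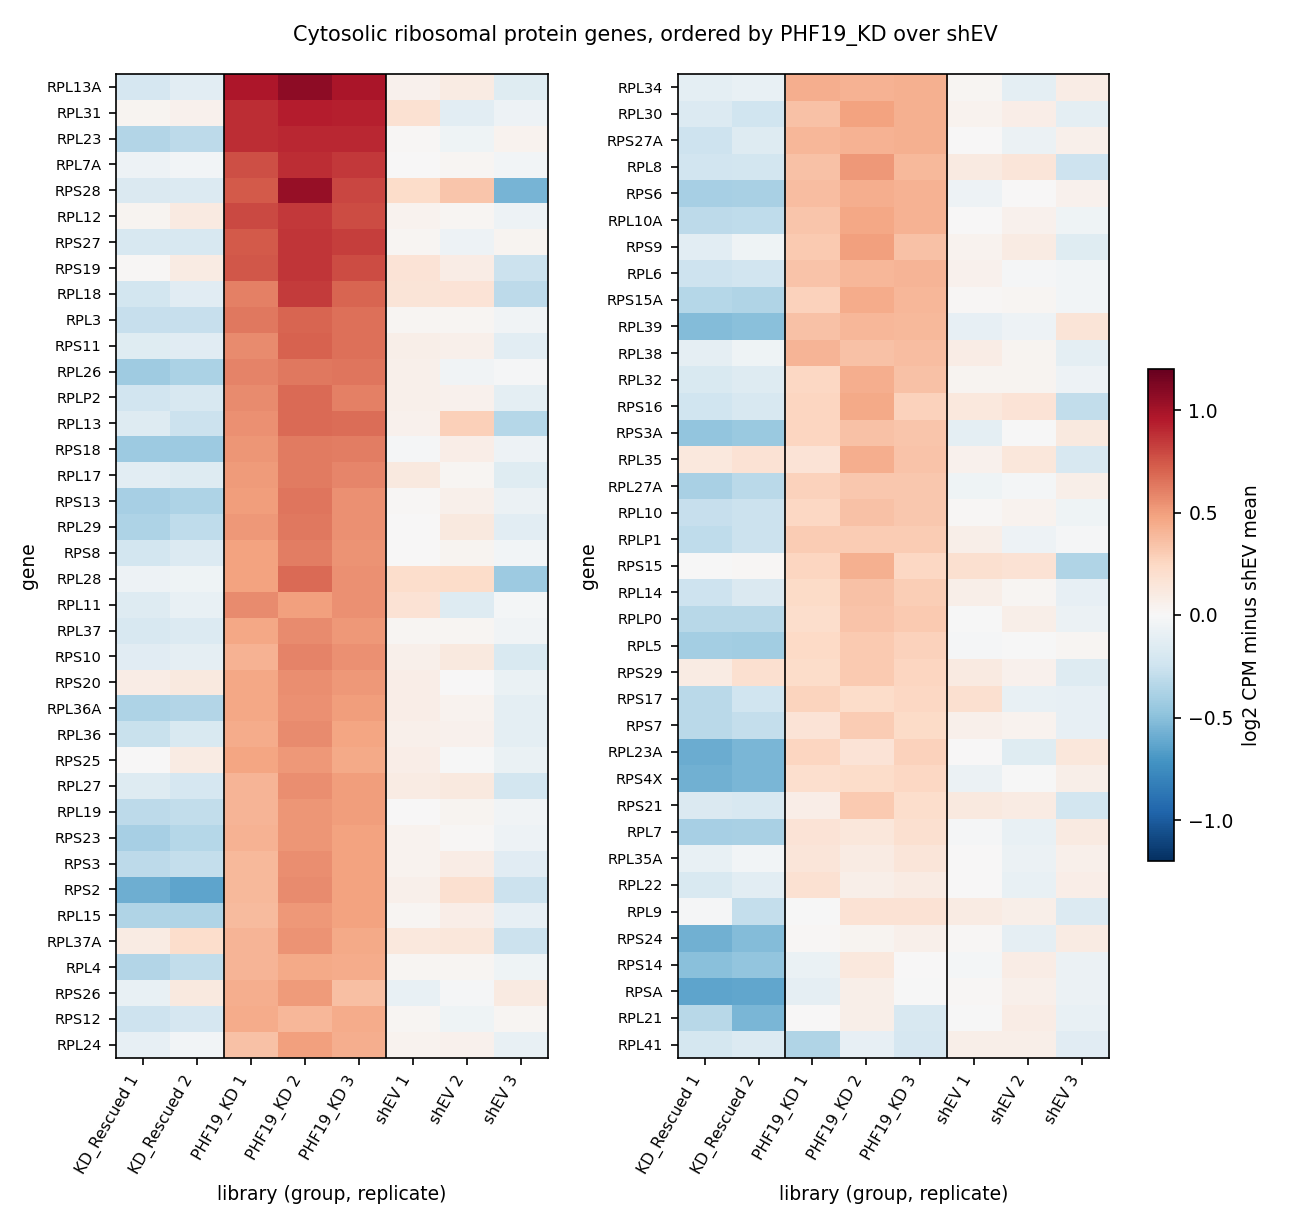
Level of 75 of the 77 genes in each library, as log2 CPM minus the mean of the 3 shEV libraries, with genes ordered by the log2 fold change of PHF19_KD over shEV. Red is above and blue below the shEV mean; the median over the 77 genes was -0.25 and -0.22 in the KD_Rescued libraries, 0.39, 0.49 and 0.43 in the PHF19_KD libraries, and 0.04, 0.04 and -0.07 in the shEV libraries.

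The 4 highest log2 fold changes were those of 60S genes. RPL13A, a 60S protein that in human myeloid cells also acts in a complex that silences translation after interferon gamma, had 1445 and 1522 CPM in KD_Rescued, 3248, 3495 and 3279.6 in PHF19_KD, and 1723, 1778 and 1499.6 in shEV. Every PHF19_KD library lay above every library of both other groups. Its log2 fold change of PHF19_KD over shEV was 1.00 ± 0.06 (SE; edgeR adjusted p 4.23e-08). RPL31, which sits at the exit of the peptide tunnel, had 870.0 and 883 CPM in KD_Rescued, 1573, 1638 and 1629 in PHF19_KD, and 967, 783 and 818 in shEV. Here KD_Rescued and shEV overlapped, and PHF19_KD stood above both. The fitted log2 fold change of PHF19_KD over shEV was 0.91 ± 0.07 (SE; edgeR adjusted p 3.79e-07).

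RPL23, which can also bind and inhibit the p53 ligase MDM2, had 866 and 890.3 CPM in KD_Rescued, 2040.3, 2069.9 and 2075 in PHF19_KD, and 1116, 1066 and 1142 in shEV. The 3 groups did not overlap, with KD_Rescued lowest. Here the log2 fold change of PHF19_KD over shEV was 0.90 ± 0.04 (SE; edgeR adjusted p 1.38e-09). RPL7A, a 60S protein, had 1727 and 1760.2 CPM in KD_Rescued, 3075, 3327 and 3245 in PHF19_KD, and 1812, 1827 and 1767 in shEV. Only the PHF19_KD libraries stood apart widely. In the edgeR fit its log2 fold change was 0.84 ± 0.04 (SE; edgeR adjusted p 3.29e-09). RPL12, part of the base of the stalk that recruits translation factors, had 537 and 564 CPM in KD_Rescued, 909, 947 and 904 in PHF19_KD, and 539, 534 and 502 in shEV, with PHF19_KD above the other groups, which overlapped. For this gene the log2 fold change was 0.81 ± 0.04 (SE; edgeR adjusted p 7.7e-09).

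Of the 40S subunit, RPS28, RPS27 and RPS19 rose most. RPS28, at the path of the mRNA out of the 40S head, had 416 and 419 CPM in KD_Rescued, 781, 968 and 815 in PHF19_KD, and 546, 592 and 319 in shEV. All PHF19_KD libraries were above all shEV libraries, of which replicate 3 was far below the others. On the log2 scale its fold change was 0.81 ± 0.24 (SE; edgeR adjusted p 0.0258), and this call was lost when PHF19_KD replicate 2 or 3, or KD_Rescued replicate 1 or 2, was left out (log2 fold changes of 0.72, 0.85, 0.81 and 0.81), and with no filter (0.72). RPS27, a zinc-binding 40S protein, had 1073 and 1075 CPM in KD_Rescued, 2046, 2219.7 and 2181 in PHF19_KD, and 1247, 1179.7 and 1261 in shEV. The 3 groups did not overlap. Over the replicates its log2 fold change was 0.81 ± 0.04 (SE; edgeR adjusted p 8.98e-09). RPS19, the gene most often mutated in Diamond-Blackfan anemia, had 910.0 and 966 CPM in KD_Rescued, 1512, 1636 and 1551 in PHF19_KD, and 1011, 960.4 and 753 in shEV. PHF19_KD was above both other groups, which overlapped. By edgeR its log2 fold change was 0.79 ± 0.10 (SE; edgeR adjusted p 0.000125).

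The genes without a call in PHF19_KD over shEV included RPSA, RPS14, RPS24, RPS15 and RPS21 of the 40S subunit and RPL22, RPL21 and RPL9 of the 60S subunit. RPSA, a 40S protein also described as a laminin receptor and the gene of isolated congenital asplenia, had 1057 and 1059 CPM in KD_Rescued, 1515, 1716 and 1629.9 in PHF19_KD, and 1654, 1704 and 1555 in shEV. PHF19_KD and shEV overlapped, and KD_Rescued was below both. Its log2 fold change of PHF19_KD over shEV was -0.02 ± 0.05 (SE; edgeR adjusted p 0.804). RPS14, whose haploinsufficiency causes the anemia of the 5q- syndrome, had 913 and 929 CPM in KD_Rescued, 1226, 1416 and 1295 in PHF19_KD, and 1276, 1377 and 1231 in shEV. The same 2 groups overlapped and KD_Rescued was again lowest. The fitted log2 fold change was 0.02 ± 0.06 (SE; edgeR adjusted p 0.777). RPS24, another Diamond-Blackfan anemia gene, had 1298 and 1344 CPM in KD_Rescued, 1952, 1972 and 2014 in PHF19_KD, and 1946, 1792 and 2068 in shEV, with the same pattern of overlap. Here the log2 fold change was 0.03 ± 0.05 (SE; edgeR adjusted p 0.582).

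RPL21, a 60S protein, had 54.1 and 46.7 CPM in KD_Rescued, 68.3, 71.4 and 59.5 in PHF19_KD, and 67.9, 72.6 and 64.1 in shEV. PHF19_KD again overlapped shEV. For this gene the log2 fold change was -0.04 ± 0.08 (SE; edgeR adjusted p 0.678). Under other scalings or filters, or with libraries left out, the small values of RPSA, RPS14, RPS24 and RPL21 changed sign. With upper-quartile scaling RPSA (0.14), RPS14 (0.18) and RPS24 (0.19) were called higher, and with the stricter filter of 5 CPM RPS14 (0.14) and RPS24 (0.15) were.

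RPS15, a protein of the 40S head that is recurrently mutated in chronic lymphocytic leukemia, had 594 and 604 CPM in KD_Rescued, 713, 805 and 712 in PHF19_KD, and 683, 673 and 465 in shEV. All PHF19_KD libraries were above all shEV libraries, but replicate 3 of shEV was far below the others. On the log2 scale its fold change was 0.29 ± 0.15 (SE; edgeR adjusted p 0.118). It was called higher at 0.13 without shEV replicate 3, at 0.45 with upper-quartile scaling and at 0.41 with the filter of 5 CPM. RPS21 had 512 and 506 CPM in KD_Rescued, 612, 719 and 668 in PHF19_KD, and 626, 621 and 498 in shEV, and the groups overlapped at PHF19_KD replicate 1. Over the replicates its log2 fold change was 0.20 ± 0.09 (SE; edgeR adjusted p 0.0846), and it was called higher with DESeq2 (0.19), without PHF19_KD replicate 1 (0.26), with only the libraries of both groups (0.21), with upper-quartile scaling (0.35) and with the filter of 5 CPM (0.31). RPL22, a 60S protein that is dispensable for growth in mice but needed for T-cell development there, had 431 and 449 CPM in KD_Rescued, 554, 515 and 525 in PHF19_KD, and 491, 461 and 517 in shEV. PHF19_KD and shEV overlapped at shEV replicate 3. By edgeR its log2 fold change was 0.12 ± 0.05 (SE; edgeR adjusted p 0.0521). It was called higher without shEV replicate 3 (0.16), without PHF19_KD replicate 2 (0.14), with pseudogenes added (0.12), with upper-quartile scaling (0.27) and with the filter of 5 CPM (0.23). RPL9 was called higher with the same scaling (0.27) and the same filter (0.23).

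RPL41, which codes for the smallest ribosomal protein and forms a bridge between the subunits, was the only member called lower. It had 2743 and 2851 CPM in KD_Rescued, 2487, 2971 and 2762 in PHF19_KD, and 3342, 3342 and 2892 in shEV. The groups overlapped, since PHF19_KD replicate 2 was above shEV replicate 3. Its log2 fold change of PHF19_KD over shEV was -0.22 ± 0.07 (SE; edgeR adjusted p 0.0194). The call was lost without PHF19_KD replicate 1 (-0.15), without shEV replicate 1 (-0.18), without shEV replicate 2 (-0.18), with upper-quartile scaling (-0.064) and with the stricter filter of 5 CPM (-0.10).

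By place in the ribosome, the list medians of PHF19_KD over shEV lay between 0.31 for the stalk proteins and 0.47 for the Diamond-Blackfan anemia genes. As background, 34.9% of all genes tested were called higher and 34.2% lower. Of 31 genes of the 40S subunit, 25 were called higher and none lower, with a median log2 fold change of 0.41. Of 46 genes of the 60S subunit, 42 were called higher and 1 lower, with a median of 0.42. The 14 proteins of the 40S head had 12 called higher and a median of 0.45. The 8 proteins around the exit of the peptide tunnel had 7 called higher and a median of 0.43, with RPL22 the exception. Of 18 members that are Diamond-Blackfan anemia genes, 17 were called higher, RPS24 being the exception.

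RPS6, RPL5 and RPL11 were called higher as well. RPS6, the substrate of the S6 kinases below mTOR, had 1113 and 1120.2 CPM in KD_Rescued, 1897, 1981 and 1958 in PHF19_KD, and 1404, 1473 and 1518 in shEV. The 3 groups did not overlap. The fitted log2 fold change of PHF19_KD over shEV was 0.41 ± 0.04 (SE; edgeR adjusted p 2.07e-06). RPL5, which with RPL11 and 5S rRNA binds MDM2 and is recurrently lost in myeloma, had 542 and 539 CPM in KD_Rescued, 846, 895 and 872 in PHF19_KD, and 709.6, 716 and 731 in shEV. The groups were again separate. Here the log2 fold change was 0.28 ± 0.04 (SE; edgeR adjusted p 3.51e-05). RPL11 had 889.6 and 929 CPM in KD_Rescued, 1465, 1397 and 1446 in PHF19_KD, and 1115, 892 and 976 in shEV, with PHF19_KD above both other groups and KD_Rescued overlapping shEV. In the edgeR fit its log2 fold change was 0.53 ± 0.07 (SE; edgeR adjusted p 4.55e-05).

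The stalk proteins RPLP0, RPLP1 and RPLP2, which recruit and activate elongation factors, were all called higher. RPLP0 had 2561 and 2565 CPM in KD_Rescued, 3755, 4092 and 4011 in PHF19_KD, and 3235, 3404 and 3077 in shEV. The groups did not overlap. For this gene the log2 fold change was 0.29 ± 0.05 (SE; edgeR adjusted p 0.000161), and those of RPLP1 and RPLP2 were 0.31 and 0.61. RPS27A is made as a fusion with ubiquitin and had 1024 and 1091 CPM in KD_Rescued, 1599, 1622 and 1635 in PHF19_KD, and 1222, 1157 and 1268 in shEV. PHF19_KD was highest and KD_Rescued lowest, without overlap. On the log2 scale its fold change was 0.41 ± 0.04 (SE; edgeR adjusted p 4.02e-06). RPL10, mutated in T-cell acute leukemia, had 1735 and 1759 CPM in KD_Rescued, 2509, 2685 and 2634 in PHF19_KD, and 2120.1, 2169 and 2032 in shEV, also with 3 separate groups. Over the replicates its log2 fold change was 0.31 ± 0.04 (SE; edgeR adjusted p 2.92e-05). RPL3, close to the peptidyl transferase centre, had 1945 and 1943 CPM in KD_Rescued, 3665, 3826 and 3730.1 in PHF19_KD, and 2397, 2389.7 and 2289.8 in shEV. The groups were separate here too. By edgeR its log2 fold change was 0.67 ± 0.04 (SE; edgeR adjusted p 1.34e-08).

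The rescued cells were set against the knockdown to ask what changed when PHF19 was added back. Of the 77 genes, none was called higher in KD_Rescued than in PHF19_KD, 73 were called lower and 4 were not called, namely RPL41, RPS29, RPL35 and RPS15, of which RPS29, RPL35 and RPS15 were called lower under some alternatives. Among all genes tested, 29.5% were called lower and 33.9% higher. The median log2 fold change of the members was -0.67, against 0.03 for all genes, and the range was -1.23 to 0.03. For 75 members both KD_Rescued libraries were below all PHF19_KD libraries, as for 36.3% of all genes. For none were they above, which held for 40.9% of all genes. Both comparisons use the same 3 PHF19_KD libraries, so their directions are not independent. Without shEV replicate 3, which bears on this comparison only through the joint filter, scaling and spread, 75 members were called lower. With upper-quartile scaling the median of all genes was -0.12, the higher share of all calls was 42.1% in place of 53.4%, and 76 members were called lower. All 77 members lay below the median of all genes under both scalings, which again move all genes by about the same amount.

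The largest falls were those of RPL23 and RPL13A, with log2 fold changes of KD_Rescued over PHF19_KD of -1.23 ± 0.05 (SE; edgeR adjusted p 4.01e-10) and -1.17 ± 0.07 (SE; edgeR adjusted p 5.04e-08); their levels in each library are given above. RPS2, at the entry of the mRNA channel, had 566 and 547 CPM in KD_Rescued, 1110.4, 1256 and 1185 in PHF19_KD, and 887, 968 and 711 in shEV. KD_Rescued was lowest and the groups were separate. Its log2 fold change of KD_Rescued over PHF19_KD was -1.09 ± 0.12 (SE; edgeR adjusted p 7.43e-05). RPS18, a protein of the 40S head, had 1754 and 1751 CPM in KD_Rescued, 3429, 3648 and 3629 in PHF19_KD, and 2350.2, 2505 and 2271 in shEV. All 3 groups were separate. The fitted log2 fold change was -1.03 ± 0.05 (SE; edgeR adjusted p 6.35e-09). That of RPS28 was -1.03 ± 0.28 (SE; edgeR adjusted p 0.0193), a call that was lost without KD_Rescued replicate 1 (-1.02) or replicate 2 (-1.04), and with no filter (-0.99).

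The members that differed least between KD_Rescued and PHF19_KD were RPL41, RPS29, RPL35, RPL35A and RPL9. RPL35, at the tunnel exit, had 491 and 508 CPM in KD_Rescued, 505, 607 and 570.2 in PHF19_KD, and 466, 495 and 394 in shEV. KD_Rescued overlapped PHF19_KD, whose replicate 1 was low. Here the log2 fold change of KD_Rescued over PHF19_KD was -0.17 ± 0.10 (SE; edgeR adjusted p 0.177), and it was called lower with DESeq2 (-0.21), without PHF19_KD replicate 1 (-0.25), with upper-quartile scaling (-0.32) and with the filter of 5 CPM (-0.26). RPS29, a zinc-binding protein of the 40S head, had 245 and 262 CPM in KD_Rescued, 267, 284 and 273 in PHF19_KD, and 246, 237 and 206 in shEV. KD_Rescued was just below PHF19_KD and overlapped shEV. In the edgeR fit its log2 fold change was -0.12 ± 0.07 (SE; edgeR adjusted p 0.169), and it was called lower without shEV replicate 3 (-0.12), with only the libraries of both groups (-0.16), with DESeq2 (-0.16), with upper-quartile scaling (-0.27) and with the filter of 5 CPM (-0.21). RPL41 had 0.03 ± 0.08 (SE; edgeR adjusted p 0.765), and its sign differed between scalings.

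RPL35A, a Diamond-Blackfan anemia gene, had 645 and 673 CPM in KD_Rescued, 759, 737 and 761 in PHF19_KD, and 689.6, 657 and 718 in shEV. KD_Rescued was below PHF19_KD and overlapped shEV. For this gene the log2 fold change was -0.19 ± 0.05 (SE; edgeR adjusted p 0.00419), a call that was lost without KD_Rescued replicate 1 (-0.15). RPL9, a 60S protein, had 56.3 and 46.5 CPM in KD_Rescued, 56.5, 63.9 and 64.2 in PHF19_KD, and 60.9, 59.4 and 50.5 in shEV. Both KD_Rescued libraries were below PHF19_KD, replicate 1 by a narrow margin. On the log2 scale its fold change was -0.26 ± 0.10 (SE; edgeR adjusted p 0.0468), and the call was lost without PHF19_KD replicate 2 (-0.24), PHF19_KD replicate 3 (-0.24) or KD_Rescued replicate 2 (-0.13). For RPS15 it was -0.31 ± 0.16 (SE; edgeR adjusted p 0.142), and RPS15 was called lower without shEV replicate 3 (-0.31), with only the libraries of both groups (-0.35), with upper-quartile scaling (-0.47) and with the filter of 5 CPM (-0.40).

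Rescued cells were also set against the empty vector, which asks how they compare with the control. PHF19 itself was above the control in KD_Rescued, with a log2 fold change of 0.91 ± 0.07 (SE; edgeR adjusted p 2.45e-06). None of the 77 members was called higher in KD_Rescued than in shEV, 45 were called lower and 32 were not called. Among all genes tested, 19.1% were called lower and 20.7% higher. The median log2 fold change of the members was -0.23, against 0.02 for all genes, with a range from -0.63 to 0.14. For 48 members both KD_Rescued libraries were below all shEV libraries, as for 29.2% of all genes tested, and for 1 they were above, as for 32.5%. The count of lower members was 63 without shEV replicate 3 and 34 without KD_Rescued replicate 1.

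The genes farthest below the control in rescued cells were RPSA, RPS2, RPL23A, RPS4X and RPS24, of which RPSA and RPS24 had not been called in the knockdown. RPSA had the lowest log2 fold change of KD_Rescued over shEV, at -0.63 ± 0.06 (SE; edgeR adjusted p 9.14e-06), followed by RPS2 at -0.62 ± 0.12 (SE; edgeR adjusted p 0.00413). RPL23A, where the signal recognition particle docks near the tunnel exit, had 491 and 509 CPM in KD_Rescued, 885, 832 and 901 in PHF19_KD, and 748, 671 and 817 in shEV. KD_Rescued was below both other groups by a wide margin. Over the replicates its log2 fold change of KD_Rescued over shEV was -0.58 ± 0.07 (SE; edgeR adjusted p 0.000112). RPS4X, an X-linked 40S protein, had 1363 and 1389.7 CPM in KD_Rescued, 2338, 2378 and 2415 in PHF19_KD, and 1939, 2036 and 2138 in shEV. The groups were separate and KD_Rescued was lowest. By edgeR its log2 fold change was -0.57 ± 0.05 (SE; edgeR adjusted p 5.1e-06). RPS24 followed at -0.55 ± 0.06 (SE; edgeR adjusted p 2.07e-05).

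At the other end, RPL37A, RPL35, RPS29, RPS20 and RPL12 were the highest members of this comparison, and none was called. RPL37A, a zinc-binding 60S protein, had 817 and 880.4 CPM in KD_Rescued, 1010.2, 1104 and 1043 in PHF19_KD, and 829.7, 835 and 638 in shEV. KD_Rescued was below PHF19_KD and overlapped shEV. Its log2 fold change of KD_Rescued over shEV was 0.14 ± 0.11 (SE; edgeR adjusted p 0.337). RPS20, a protein of the 40S head, had 895 and 915 CPM in KD_Rescued, 1158, 1236 and 1204 in PHF19_KD, and 888, 842 and 798 in shEV. It was the only member for which both KD_Rescued libraries were above all shEV libraries. The fitted log2 fold change was 0.10 ± 0.05 (SE; edgeR adjusted p 0.134). Those of RPL35, RPS29 and RPL12 were 0.14 ± 0.10 (SE; edgeR adjusted p 0.293), 0.14 ± 0.07 (SE; edgeR adjusted p 0.131) and 0.07 ± 0.05 (SE; edgeR adjusted p 0.28).

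The members were also tested relative to their own sum, with the size of each library set to the summed counts of the 77 genes. A change in this fit is a change in a gene's share of the family, and since the shares add up to the whole, a larger share for some leaves less for the rest. In PHF19_KD over shEV, 17 members had a larger share, 21 a smaller share and 39 were not called. Among all genes tested with the same library sizes, 19.0% were higher and 52.3% lower. In KD_Rescued over PHF19_KD, 24 members were larger, 15 smaller and 38 not called, against 65.1% higher and 9.69% lower among all genes. In KD_Rescued over shEV, 14 were larger, 11 smaller and 52 not called, against 43.5% higher and 4.42% lower among all genes. The p-values were adjusted over all 16600 genes, of which 71.3%, 74.7% and 47.9% were called in the 3 comparisons in turn. The adjustment was therefore mild for the 77 members. The standard deviation of the members' log2 fold changes around their sum was 0.23, 0.24 and 0.18 in turn, while the median changes of the family were 0.42, -0.67 and -0.23. The last comparison depended on single libraries: 41 members were called without shEV replicate 3, 16 without KD_Rescued replicate 1 and 14 without KD_Rescued replicate 2.

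RPL41 changed its share most in the comparisons with PHF19_KD. It held 3.99% and 4.05% in KD_Rescued, 2.28%, 2.54% and 2.43% in PHF19_KD, and 3.89%, 3.9% and 3.63% in shEV of the family's counts. The PHF19_KD libraries were well below all others, which were close to each other. Its log2 fold change relative to the sum was -0.66 ± 0.05 (edgeR adjusted p 1.06e-08) for PHF19_KD over shEV and 0.73 ± 0.05 (edgeR adjusted p 6.89e-09) for KD_Rescued over PHF19_KD. In KD_Rescued over shEV it was not called, at 0.08 ± 0.06 (edgeR adjusted p 0.254), and RPL37A had the largest change, at 0.42 ± 0.07 (edgeR adjusted p 0.00028). RPL13A held 2.1% and 2.16% in KD_Rescued, 2.98%, 2.98% and 2.89% in PHF19_KD, and 2.01%, 2.07% and 1.88% in shEV. PHF19_KD was above both other groups. Its values relative to the sum were 0.57 ± 0.05 (edgeR adjusted p 3.06e-08) and -0.47 ± 0.05 (edgeR adjusted p 9.71e-07) in the same comparisons.

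RPSA held 1.54% and 1.51% in KD_Rescued, 1.39%, 1.46% and 1.43% in PHF19_KD, and 1.93%, 1.99% and 1.95% in shEV. Here KD_Rescued and PHF19_KD were both below shEV. Its values relative to the sum were -0.45 ± 0.04 (edgeR adjusted p 2.07e-07) for PHF19_KD over shEV and -0.36 ± 0.05 (edgeR adjusted p 3.43e-05) for KD_Rescued over shEV. RPL23 held 1.26% and 1.27% in KD_Rescued, 1.87%, 1.77% and 1.83% in PHF19_KD, and 1.3%, 1.24% and 1.43% in shEV. PHF19_KD was above both other groups, which overlapped. Its values were 0.46 ± 0.05 (edgeR adjusted p 1.81e-06) for PHF19_KD over shEV and -0.53 ± 0.06 (edgeR adjusted p 1.26e-06) for KD_Rescued over PHF19_KD. RPL7A held 2.51% and 2.5% in KD_Rescued, 2.82%, 2.84% and 2.86% in PHF19_KD, and 2.11%, 2.13% and 2.22% in shEV, and all 3 groups were separate. Its values were 0.40 ± 0.04 (edgeR adjusted p 5.12e-07) for PHF19_KD over shEV and 0.22 ± 0.05 (edgeR adjusted p 0.0014) for KD_Rescued over shEV.

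**Figure D3:**
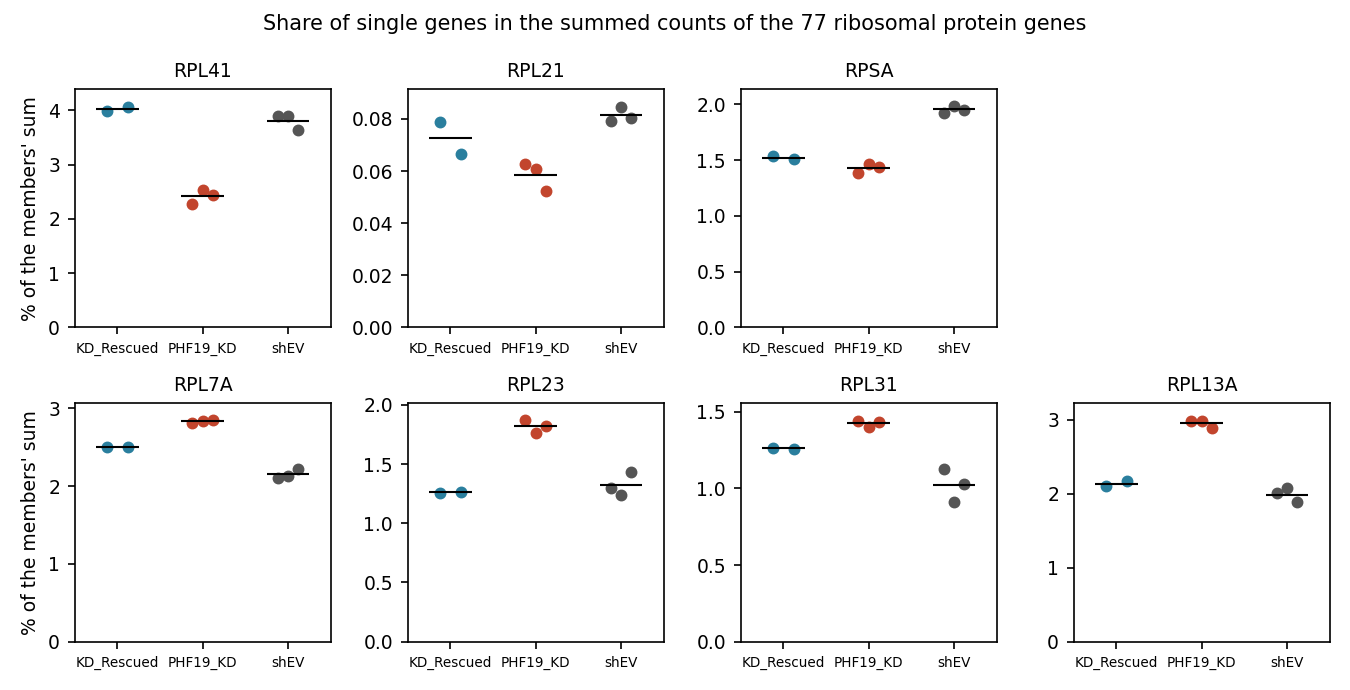
Share of 7 genes in the summed counts of the 77 ribosomal protein genes, in percent, with 1 point per library and a line at the group mean. The genes are among those with the 4 lowest (top) and the 4 highest (bottom) log2 fold changes of PHF19_KD over shEV relative to the sum; RPL41 held 3.99% and 4.05% in KD_Rescued, 2.28% to 2.54% in PHF19_KD and 3.63% to 3.90% in shEV.

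The counts of the members are estimates, and reads may have been shared with other rows of the table. Ribosomal protein genes have many processed pseudogenes whose sequence is close to the mRNA. Reads may have been divided between a member and its pseudogenes, which was not tested. All 77 members had a count that was not a whole number, within 0.01, in 6 to 8 of the 8 libraries. The same was not counted for other genes, so it neither sets the family apart nor shows which rows shared reads. There were 858 rows with the symbol of a member followed by P and a number. They held 0.275% ± 0.00151 of counts in KD_Rescued, 0.447% ± 0.0159 in PHF19_KD and 0.322% ± 0.00734 in shEV, the same order as the members. For 10 members these rows held at least 10% of the combined counts, with RPS28 highest at 30.4%, and with RPL13A (18.5%), RPS2 (15.6%), RPSA (14.2%), RPL7, RPS3A, RPL14, RPS23 and RPS7 among them, so the levels of these genes are uncertain. With each member's pseudogene rows added to it, 68 members were called higher and 1 lower in PHF19_KD over shEV, and the median was 0.43.

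Most members had short coding sequences, and many had the tract at the start. Those with promoter sequence lay on 20 chromosomes. Coding sequences ran from 75 to 1281 bases with a median of 456, and their GC content from 42.5% to 63.0%. Promoter sequence was at hand for 62 members. A C at the annotated start followed by at least 4 pyrimidines stood in 42 of these (67.7%), against 499 of 9980 tested genes outside the family (5.0%) and 4.04% of 27305 promoters in all. The motif CCGGAAGT, bound by ETS factors, was in 14.5% of members' promoters, 8.77% of those of the other tested genes and 4.44% of all. AAGATGGC, bound by YY1, was in 9.68%, 5.40% and 3.03% of the same sets. The E-box CACGTG was in 4.84%, 10.45% and 7.43%. TATAAA was in 8.06% of members' promoters, above the 5.57% of the other tested genes and below the 11.95% of all. Both strands were searched over 300 bases, the palindromic CACGTG once.

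The changes were set beside these features. The median log2 fold change of PHF19_KD over shEV was 0.43 for the 42 members with the tract at the start and 0.42 for the 20 without. Outside the family, the 499 genes with it had a median of -0.01, with 37.7% called higher and 36.7% lower, close to the shares among all genes. For KD_Rescued over PHF19_KD their median was 0.02, with 33.7% called higher and 34.9% lower. Other genes with a coding sequence under 1000 bases had a median of -0.12 in PHF19_KD over shEV (3638 genes). Across the 77 members, the log2 fold change of PHF19_KD over shEV had a Spearman correlation of -0.03 with coding length and 0.23 with GC content. For KD_Rescued over shEV the correlation with coding length was -0.39. Genes of one library are not independent replicates, and these correlations are descriptions. GC content also moved with the spread inside shEV. Its correlation with the members' signed log2 difference from the shEV mean was 0.35, 0.67 and -0.61 in replicates 1, 2 and 3.

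Most other genes listed for the translation machinery did not share the family's direction, except in part those with known TOP mRNAs. Of 22 tested genes with known TOP mRNAs outside the rule, 13 were called higher and 7 lower in PHF19_KD over shEV, with a median of 0.29. The shares over all genes tested were 34.9% higher and 34.2% lower. EIF3H, a subunit of initiation factor 3, had 199 ± 1.48 CPM in KD_Rescued, 335 ± 8.78 in PHF19_KD and 244 ± 5.58 in shEV. Here the log2 fold change was 0.46 ± 0.04 (SE; edgeR adjusted p 6.39e-07). TPT1, a growth-related protein, had 1342 ± 36.2 CPM in KD_Rescued, 2306 ± 9.29 in PHF19_KD and 1656 ± 106 in shEV and a log2 fold change of 0.48 ± 0.05 (SE; edgeR adjusted p 1.9e-06). In the same list EIF3A, the largest subunit of that factor, and NPM1, a nucleolar chaperone, fell, at -0.66 ± 0.04 (SE; edgeR adjusted p 1.86e-08) and -0.55 ± 0.04 (SE; edgeR adjusted p 1.62e-07).

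Most genes of ribosome assembly fell in PHF19_KD. Of 29 assembly and export factors, 26 were called lower and none higher, with a median of -0.69. Over all genes tested, 34.2% were called lower and 34.9% higher. NCL, nucleolin, had 729 ± 0.307 CPM in KD_Rescued, 372 ± 12.5 in PHF19_KD and 853 ± 41.8 in shEV, and its log2 fold change of PHF19_KD over shEV was -1.19 ± 0.05 (SE; edgeR adjusted p 4.37e-10). NOLC1, a chaperone of nucleolar particles, had -1.10 ± 0.04 (SE; edgeR adjusted p 4.94e-10). Of 77 mitochondrial ribosomal proteins, 66 were called lower and none higher, with a median of -0.55, led by MRPL37 at -1.32 ± 0.05 (SE; edgeR adjusted p 2.08e-10) and MRPL11 at -1.50 ± 0.06 (SE; edgeR adjusted p 1.28e-09). Of 20 genes of RNA polymerase I and its factors, which make the large ribosomal RNA precursor, 13 were called lower and 2 higher, with a median of -0.40. UBTF, which activates the rRNA genes, had -0.97 ± 0.05 (SE; edgeR adjusted p 2.42e-09), and TWISTNB, a polymerase subunit, -0.99 ± 0.06 (SE; edgeR adjusted p 1.69e-08), while TAF1C and POLR1D rose, at 0.61 ± 0.08 (SE; edgeR adjusted p 2.31e-05) and 0.25 ± 0.05 (SE; edgeR adjusted p 0.00149).

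Of 25 cytosolic translation factors, 20 were called lower and 3 higher, with a median of -0.60. The helicase EIF4A2 rose, with 392 ± 2.09 CPM in KD_Rescued, 768 ± 12.5 in PHF19_KD and 332 ± 17.3 in shEV and a log2 fold change of 1.21 ± 0.04 (SE; edgeR adjusted p 2.85e-10). Its paralog EIF4A1 fell, at -0.85 ± 0.04 (SE; edgeR adjusted p 2.09e-09), as did the ribosome recycling factor ABCE1, at -1.14 ± 0.05 (SE; edgeR adjusted p 9.98e-10). EIF3L, a further subunit of initiation factor 3, rose, at 0.43 ± 0.04 (SE; edgeR adjusted p 5.7e-07). Of 22 regulators of mTOR and of TOP mRNAs, 7 were called higher and 14 lower, against 34.9% and 34.2% of all genes tested. RICTOR, a subunit of mTOR complex 2, and DDIT4, an inhibitor of mTOR complex 1, rose, at 0.77 ± 0.05 (SE; edgeR adjusted p 6.92e-08) and 0.97 ± 0.08 (SE; edgeR adjusted p 2.93e-07). EIF4G1, the scaffold of the cap-binding complex, and LARP4, which binds poly(A), fell, at -0.80 ± 0.05 (SE; edgeR adjusted p 2.22e-08) and -0.91 ± 0.06 (SE; edgeR adjusted p 3.09e-08). With upper-quartile scaling 9 of these regulators were called lower.

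In KD_Rescued over PHF19_KD, these lists, the known TOP mRNAs excepted, had more genes called higher than lower, opposite to the ribosomal protein genes. This comparison uses the same PHF19_KD libraries as the last, so the directions are not independent. Over all genes tested, 33.9% were called higher and 29.5% lower. Of the assembly and export factors 25 were called higher and 1 lower (median 0.62), of the mitochondrial ribosomal proteins 54 higher and 4 lower (median 0.41), of the translation factors 19 higher and 3 lower (median 0.43), and of the RNA polymerase I genes 16 higher and 1 lower (median 0.46). Of the regulators of mTOR and of TOP mRNAs, 11 were called higher and 5 lower (median 0.26). Known TOP mRNAs outside the rule had 5 called higher and 14 lower (median -0.51). FAU, whose product is a ubiquitin-like protein fused to RPS30, had log2 fold changes of -0.62 ± 0.07 (SE; edgeR adjusted p 1.2e-05) for KD_Rescued over PHF19_KD and 0.48 ± 0.06 (SE; edgeR adjusted p 2.64e-05) for PHF19_KD over shEV.

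The paralogs divided. In PHF19_KD over shEV, RPL22L1 rose, at 0.53 ± 0.07 (SE; edgeR adjusted p 1.71e-05). The barely detected RPL3L, a heart and muscle protein, had 0.187 ± 0.0878 CPM in KD_Rescued, 0.673 ± 0.154 in PHF19_KD and 0.191 ± 0.0510 in shEV, and rose, at 1.80 ± 0.50 (SE; edgeR adjusted p 0.00646). RPL39L, RPL26L1, RPL36AL and RPL7L1 fell, at -1.17, -0.75, -0.73 and -0.25. RPL39L had 29.2 ± 0.894 CPM in KD_Rescued, 12.9 ± 0.0766 in PHF19_KD and 29.1 ± 0.74 in shEV and an adjusted p of 1.85e-08 (edgeR), and RPL36AL had 117 ± 1.37 CPM in KD_Rescued, 71.9 ± 2.14 in PHF19_KD and 119 ± 6.53 in shEV. RPS27L was not called, at 0.17 ± 0.08 (SE; edgeR adjusted p 0.0739), and RPL10L did not pass the filter.

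**Figure D4:**
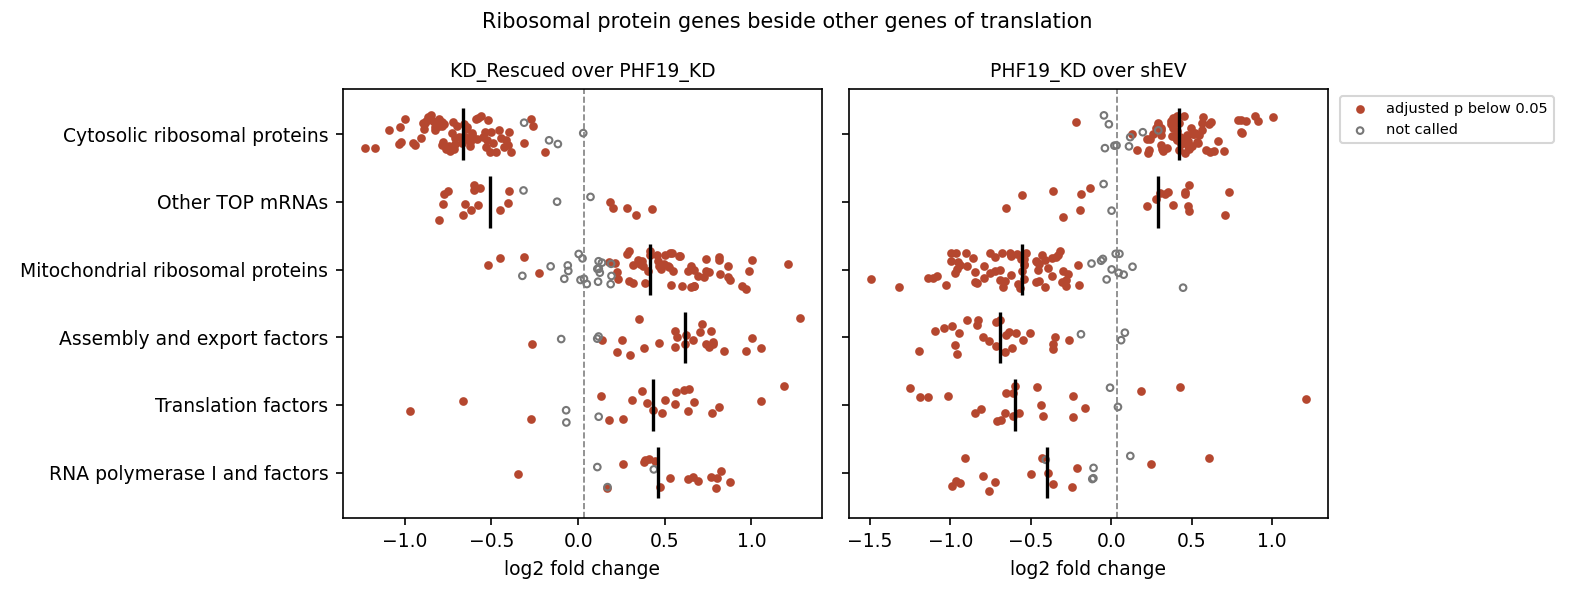
Log2 fold change of each gene of 6 lists for KD_Rescued over PHF19_KD (left) and PHF19_KD over shEV (right). Filled points were called and open points were not, black bars are list medians and the dashed line is the median of all genes tested; the medians of the cytosolic ribosomal proteins were -0.67 and 0.42, those of the mitochondrial ribosomal proteins 0.41 and -0.55.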

How the data were processed

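RNA-seq of total RNA from MM1S cells was analysed, with libraries made with an Illumina TruSeq kit, per the labels' protocols. The authors deposited 1 table of estimated counts per gene (58387 genes, not scaled between libraries). Per the submitters' processing notes, CASAVA, RSEM and hg19 were used, without versions or roles, while the name of the table refers to salmon; no source used here gives the annotation or the strand setting. Reads shared between genes were divided, so estimated counts need not be whole, and with no stated strand setting reads of overlapping genes cannot be told apart. Groups were taken from the labels, and 1 library whose labels disagree entered no test. The members and the gene lists were chosen with earlier results of these data known.

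Estimated counts were rounded and tested with edgeR 4.0.16 in R 4.3.3 (genes kept by filterByExpr, TMM scaling, robust quasi-likelihood fit and F-test). The 8 libraries with a settled group were fitted together by group means, and p-values were Benjamini-Hochberg adjusted over 16600 genes. Normalised CPM were scaled by column total and TMM factor. The fit relative to the members' sum used that sum as library size with no further factor. SE is the log2 fold change over the root of its F value. The test was checked on simulated data in which few genes changed. In PHF19_KD over shEV 11476 of 16600 genes were called, and the check does not cover a shift that broad. Values per library are given for members among the 5 highest or 5 lowest log2 fold changes of a comparison, for uncalled members with the highest means, for the 4 highest and lowest relative to the sum, and for members with set roles. Of other lists, the called rises and falls with the lowest adjusted p are named, at most 2 each way, and paralogs. A few genes that meet these rules are not reported here.

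Promoters were matched by symbol to RefSeq (GRCh38.p14) for 62 of 77 members, and coding lengths to GENCODE transcripts for 77. Alternatives were other scalings, filters, DESeq2 1.42.0, a replicate term, leaving out each library, leaving out mitochondrially encoded genes and adding pseudogenes.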

Additional observations from a re-analysis of the deposited data

Results flagged for a closer look

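One library was kept out of the comparisons because it is a knockdown by title and a rescue by its shRNA label. It shows a signal above the controls. The ribosomal protein genes held 10.9% of its counts, while the highest shEV library had 8.36%. In plain CPM, 69 of the 77 genes were above the highest shEV library, 20 lay within the range of the PHF19_KD libraries and 45 were below the lowest of them. The median log2 ratio to the shEV mean was 0.37 in this library, where it was 0.46 for the PHF19_KD mean. PHF19 stood at 63.5 CPM and mitochondrially encoded genes at 5.56% of counts. With 1 library and no settled label, nothing was tested.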

How the results depend on the processing

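Across the alternatives, the median of the ribosomal protein genes stayed positive for PHF19_KD over shEV and negative for both comparisons with KD_Rescued. For PHF19_KD over shEV the median was 0.58 with upper-quartile scaling, 0.33 with no filter and 0.54 with a filter at 5 CPM, and the number of members called lower was 0, 2 and 0 in turn. For KD_Rescued over PHF19_KD it was -0.82 with upper-quartile scaling and -0.76 with the filter at 5 CPM. Shares of counts in KD_Rescued, PHF19_KD and shEV were 7.43%, 12.6% and 8.49% without mitochondrially encoded genes, and 7.33%, 11.9% and 8.54% with pseudogenes added. The cause of these shifts was not tested.

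With 1 library left out at a time, members called higher in PHF19_KD over shEV numbered 62 to 68 and called lower 0 to 1. Members called lower in KD_Rescued over PHF19_KD numbered 69 to 75, and in KD_Rescued over shEV 34 to 63. All genes called in KD_Rescued over shEV numbered 4048 to 7539 (4253 without KD_Rescued replicate 1, 4048 without replicate 2), and members called relative to their sum 14 to 41. A KD_Rescued group of 1 library borrows the spread of the others.

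Signs turned for values near 0 that had no call with TMM scaling and the usual filter. With upper-quartile scaling and the filter at 5 CPM, PHF19_KD over shEV gave 0.12 and 0.078 for RPL21 and 0.14 and 0.10 for RPSA, of which 0.14 was called. RPS14 gave -0.013 without mitochondrially encoded genes, and with no filter RPS14 gave -0.072 and RPS24 -0.059. With 1 library left out at a time, PHF19_KD over shEV ran from -0.092 to 0.037 for RPL21, -0.054 to 0.036 for RPSA, -0.035 to 0.071 for RPS14 and -0.018 to 0.081 for RPS24. KD_Rescued over PHF19_KD of RPL41 gave -0.12 with upper-quartile scaling, -0.012 with RLE scaling, -0.012 with DESeq2, -0.061 with the filter at 5 CPM, -0.011 with only the libraries of both groups, and -0.045 to 0.087 with 1 library left out.

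No pairing by replicate number was seen: same-numbered libraries had correlations of their deviations of at most 0.03. The 2 KD_Rescued libraries deviate from their mean in mirror image, which limits this check there. Whether replicates shared a culture is not stated in the labels. With a replicate block, 69 members were called higher and 1 lower in PHF19_KD over shEV, 74 lower in KD_Rescued over PHF19_KD, where RPL41 gave -0.000166, and 49 lower in KD_Rescued over shEV. The block also gave calls to RPS15 (0.31) and RPL22 (0.12) in PHF19_KD over shEV and to RPS15 (-0.42) and RPS29 (-0.16) in KD_Rescued over PHF19_KD, and ended that of RPL9 there (-0.29). Column totals in PHF19_KD were about 10609800 to 12024900, the lowest depth of the 3 groups, and KD_Rescued has only 2 libraries.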
